A study of Caenorhabditis elegans with 2 samples.

Results

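The regions described here are the strong autosomal candidates for binding by BED-2 that lie outside the thresholded peak lists of the study. They were selected on a measured value: each is a row of the combined ranked list with a signal of 50 or more, not on the X chromosome, that overlaps no peak of the conservative or the optimal thresholded list by as much as 1 base. Of 82301 ranked candidates, 67224 were autosomal and 2028 of these had a signal of 50 or more, and 1468 of the 2028 met the whole rule. No 2 of the 1468 overlapped and each was 320 bp wide. They are set against the 476 autosomal regions that the conservative list gives after overlapping peaks are merged, and in places against 50429 weaker autosomal candidates, called the other candidates. The data come from chromatin immunoprecipitation with sequencing (ChIP-seq) on whole young adult Caenorhabditis elegans of strain RW12335, genotype st12335[TY1::EGFP::3xFLAG::bed-2] III, in which genome editing inserted the tag at bed-2. The worms were synchronized as starved L1 larvae after bleaching and were 63 hours old, their chromatin was sonicated to 200 to 800 bp, and an antibody against GFP was used. There is 1 group of 2 biological replicates, so no condition is compared with another. Whole animals were used, so the cells in which a site is occupied are not known from these lists, and no library of an untagged or control sample was analysed here.

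The name under which these regions were assembled, candidates below the threshold of the irreproducible discovery rate (IDR), held for 1451 of the 1468 and not for the other 17. The IDR compares the ranks of the same peak in 2 replicates and is low where both rank it high, and the thresholded lists hold peaks with a global IDR of 0.01 or less. The 17 members reached that value in the ranked list, with scores from 843 to 1000, against 828 at most for the rest, and were still absent from both thresholded lists. Over the whole ranked list 635 rows reached it, of which 615 were the conservative list and 20 were absent from it, 17 on autosomes and 3 on X. For comparison, 24.2% of all 2028 autosomal candidates with a signal of 50 or more reached it, a share that the rule itself lowered among the members. Of the 1451, 426 had a global IDR from 0.01 to 0.05 and 1025 had one above 0.05.

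The BED domain of BED-2 is a zinc finger that contacts DNA and is named after the Drosophila proteins BEAF and DREF, which bind chromatin boundaries and promoters. In ChIP-seq a DNA-binding protein appears as a local pile of reads, commonly at promoters, the stretches just upstream of transcript starts. Sequences present in many copies, such as tandem repeats, tRNA genes and histone genes, are harder to read by sequencing, because a short read may come from any copy and copies can be collapsed in a reference genome. No source used here says how reads with several matches were treated.

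Most of the strongest members lay in tandem repeats, and windows reaching 50 bases to each side of their summits are shown because the repeat is visible in the letters. All sequences are from the RefSeq genome of the assembly WBcel235, which is ce11. The capitals mark 1 repeat unit, taken as the shortest shift at which the bases within 160 of the summit match themselves nearly best. At Y49G5A.1 the 52 capital letters hold a shorter unit of 26 bases in a pair of variants.
Y69E1A.1, IV:10945836-10945936 (ce11, plus strand): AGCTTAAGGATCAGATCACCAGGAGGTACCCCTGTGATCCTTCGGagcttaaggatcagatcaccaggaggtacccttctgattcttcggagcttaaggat
WBGene00014005, IV:10943705-10943805 (ce11, plus strand): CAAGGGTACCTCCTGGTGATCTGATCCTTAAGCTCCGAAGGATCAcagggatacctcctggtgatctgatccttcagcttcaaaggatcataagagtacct
vha-19, IV:3367015-3367115 (ce11, plus strand): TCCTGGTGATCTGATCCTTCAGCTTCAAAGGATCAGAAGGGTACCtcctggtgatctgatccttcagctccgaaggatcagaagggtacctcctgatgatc
Y97E10B.12, V:7922640-7922740 (ce11, plus strand): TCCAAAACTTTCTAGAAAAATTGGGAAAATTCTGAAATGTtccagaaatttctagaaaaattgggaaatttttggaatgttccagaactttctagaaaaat
WBGene00005902, V:7917629-7917729 (ce11, plus strand): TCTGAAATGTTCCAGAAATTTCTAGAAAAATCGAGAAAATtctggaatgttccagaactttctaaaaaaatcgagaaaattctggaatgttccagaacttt
Y49G5A.1, V:5284129-5284229 (ce11, plus strand): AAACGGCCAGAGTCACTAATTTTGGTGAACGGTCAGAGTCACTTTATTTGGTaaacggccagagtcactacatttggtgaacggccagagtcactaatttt
WBGene00012384, IV:11070973-11071073 (ce11, plus strand): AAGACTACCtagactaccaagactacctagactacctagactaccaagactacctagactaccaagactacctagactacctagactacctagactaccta
Y8A9A.2, II:3796834-3796934 (ce11, plus strand): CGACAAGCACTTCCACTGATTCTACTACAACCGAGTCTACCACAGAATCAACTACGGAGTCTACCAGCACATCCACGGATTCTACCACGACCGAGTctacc
ZC190.10, V:8699751-8699851 (ce11, plus strand): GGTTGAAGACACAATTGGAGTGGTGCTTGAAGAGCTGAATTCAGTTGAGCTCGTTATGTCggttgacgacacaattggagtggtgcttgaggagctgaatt
The first 3 windows share a unit of 45 bases. That of Y69E1A.1 matched the opposite strand of the unit at WBGene00014005 with 97.8% identity and that at vha-19 with 88.9%, at the best rotation. The units of 40 bases at Y97E10B.12 and WBGene00005902 were 90% identical on the same strand.

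In 119 of 1468 members (8.11%) the window around the summit held 1 or both of 2 words of 6 bases, ACGCGC and GTACAC. These words were picked because earlier work on the same lists had found them more often in conservative peaks than in matched candidates, so their presence in those peaks is no new support. Capitals mark each word on either strand. The first 3 windows are promoter members with high signal that hold the first word, and the last 3 hold both. Of the first 3, WBGene00004717 is a tRNA gene.
sas-5, V:11610643-11610743 (ce11, plus strand): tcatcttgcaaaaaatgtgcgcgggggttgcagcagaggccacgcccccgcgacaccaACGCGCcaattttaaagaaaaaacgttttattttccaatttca
vps-60, V:8606470-8606570 (ce11, plus strand): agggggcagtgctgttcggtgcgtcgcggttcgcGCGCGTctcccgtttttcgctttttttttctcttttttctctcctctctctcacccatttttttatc
WBGene00004717, IV:7344198-7344298 (ce11, plus strand): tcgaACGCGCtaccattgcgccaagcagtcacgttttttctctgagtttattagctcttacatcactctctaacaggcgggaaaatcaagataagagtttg
tmed-10, V:11327118-11327218 (ce11, plus strand): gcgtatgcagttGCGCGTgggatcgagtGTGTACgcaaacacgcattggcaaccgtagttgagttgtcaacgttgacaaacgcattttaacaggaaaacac
B0464.6, III:9465555-9465655 (ce11, plus strand): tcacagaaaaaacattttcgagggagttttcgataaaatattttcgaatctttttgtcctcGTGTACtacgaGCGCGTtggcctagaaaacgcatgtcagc
Y55F3AR.2, IV:1094333-1094433 (ce11, plus strand): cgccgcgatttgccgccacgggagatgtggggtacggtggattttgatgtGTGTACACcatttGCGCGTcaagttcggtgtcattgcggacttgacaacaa
In Y55F3AR.2 the second word overlaps its own reverse complement, so 8 capitals stand together.

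The members with the highest signals lay in sequence that has other copies in the genome, most of it in tandem. The signal is the value that the authors' lists give each peak, here from both replicates combined. Each ranked row also lists the signal of the matched peak in each of the 2 replicates, called the first and second matched signal. Of the 20 members with a signal of 75 or more, 16 were among the 17 that reached an IDR of 0.01. The strongest member, at III:8863018-8863337, had a combined signal of 199.3 and matched signals of 64.3 and 134.6. It was intergenic, 2090 bp upstream of K01F9.6, a non-coding RNA gene, and its window had 20 other copies, all on the same chromosome within 5000 bp, spaced most often 102 bp apart. The second, 1880 bp upstream of the non-coding RNA gene Y95D11A.4 (I:10947611-10947930), had a combined signal of 193.1 and matched signals of 93.9 and 107.7, and its array has a unit of 32 bases. Next was an intergenic region 1261 bp upstream of F52G2.3 (IV:13549331-13549650), with a combined signal of 164.2 and matched signals of 119.4 and 108.2. Its window had 446 other copies in the genome and none within 5000 bp.

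Members of the 45-base unit that reached an IDR of 0.01 were 3 regions on chromosome IV, of which 2 lie in 1 stretch. That nearest Y69E1A.1 (IV:10945726-10946045) had matched signals of 64.5 and 76.4. A neighbour in the same stretch, nearest the pseudogene WBGene00014005 (IV:10943595-10943914), had 66.6 and 58.2. The other region, 2132 bp upstream of vha-19 (IV:3366905-3367224), which encodes a subunit of the vacuolar proton pump, had 40.6 and 54.7. In all 3 the matched signals were within a factor of 1.5 of each other. Copies of the Y69E1A.1 window numbered 265 on 6 chromosomes and fell in 27 clusters when grouped within 5000 bp. The ranked candidates overlapping these copies numbered 32, of which 4 were members and 1 was a conservative peak.

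The largest cluster of members was an array of the 40-base unit on chromosome V, where 6 members lay between V:7917519 and V:7924591. Their combined signals were 110.4, 55.8, 108.0, 122.8, 70.6 and 58.1 in the order of their positions. First matched signals were 58.8, 37.9, 60.5, 62.0, 30.2 and 32.95, and second matched signals were 63.6, 15.99, 53.7, 68.2, 36.2 and 22.7. The 3 members above 100 reached an IDR of 0.01 and the other 3 did not, and the matched signals of the weakest differed most. These regions are nearest to the pseudogene WBGene00005902, the non-coding RNA gene Y97E10B.12 and srsx-7, a member of a chemoreceptor family. Windows of the 3 strongest, in the order of their positions, had 1747, 1661 and 1311 other copies. Grouped within 5000 bp, these copies fell in 204, 187 and 152 clusters. Of the ranked candidates overlapping the 1747 copies of the first, 185 in all, 12 were members and 5 were conservative peaks, so the unit is not particular to the members. One of the 12, nearest ttm-5 (I:14687024-14687343), had a combined signal of 51.0 and lay 230 bp from a conservative peak.

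**Figure D1:**
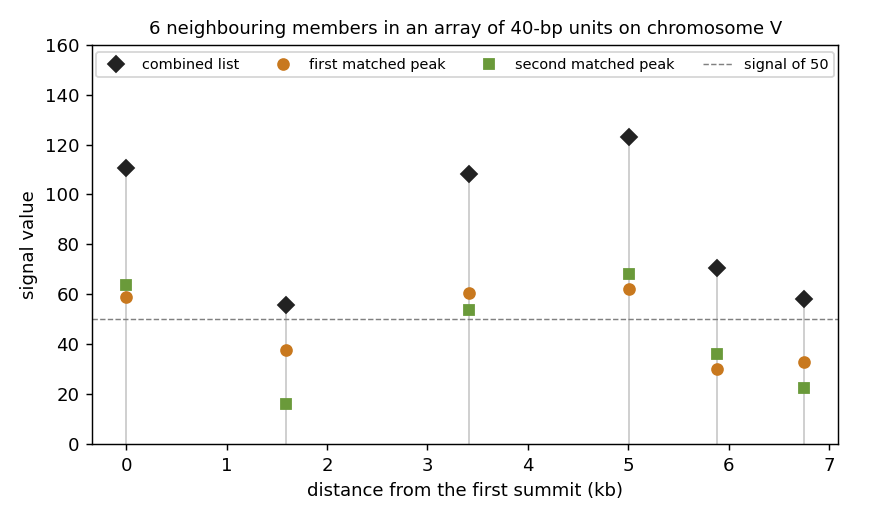
Signal values (vertical axis) of the 6 members in the array of 40-bp units on chromosome V against the distance of their summits from the first (horizontal axis, kb). Diamonds are the combined signal, circles and squares the first and second matched signal; the combined signal runs from 55.8 to 122.8.

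The remaining members that reached an IDR of 0.01 were of several repeat types. An intergenic region 531 bp from the non-coding RNA gene F19B6.9 (IV:12318936-12319255) had matched signals of 62.7 and 63.3. Its unit was 94 bases by self-match, with copies most often spaced 96 bases apart. Nearest Y49G5A.1 (V:5284019-5284338) the matched signals were 79.5 and 67.8. A simple repeat of 9 bases near the pseudogene WBGene00012384 (IV:11070863-11071182) had 60.5 and 43.9. The region nearest Y61B8B.3 (V:17310539-17310858) had 73.1 and 61.9, with 877 other copies and 231 ranked candidates overlapping them, of which 2 were members and none was conservative. The promoter of the 5S ribosomal RNA gene rrn-4.2 (V:17127966-17128285) had 51.5 and 75.8, with its summit 278 bp upstream and 3 other copies, and its sequence showed no tandem unit (self-identity 31.5%).

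Coding exons held 2 of the 17, and both are repeats within a gene. In Y8A9A.2 (II:3796724-3797043) the matched signals were 44.4 and 40.3. The unit was 96 bases by self-match, although its copies were most often spaced 60 bases apart. In ZC178.2 (V:8699641-8699960), whose exon is 3483 bp from the nearest start, that of ZC190.10, they were 37.5 and 36.1 and the unit was 60 bases. Each unit is a multiple of 3, the length of a codon. The last of the 17, nearest Y95D11A.5 in the array of the 32-base unit (I:10952711-10953030), had 55.9 and 29.8. Of the 17, 13 were intergenic, 12 had a self-identity of 70% or more and all had at least 1 other copy.

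**Figure D2:**
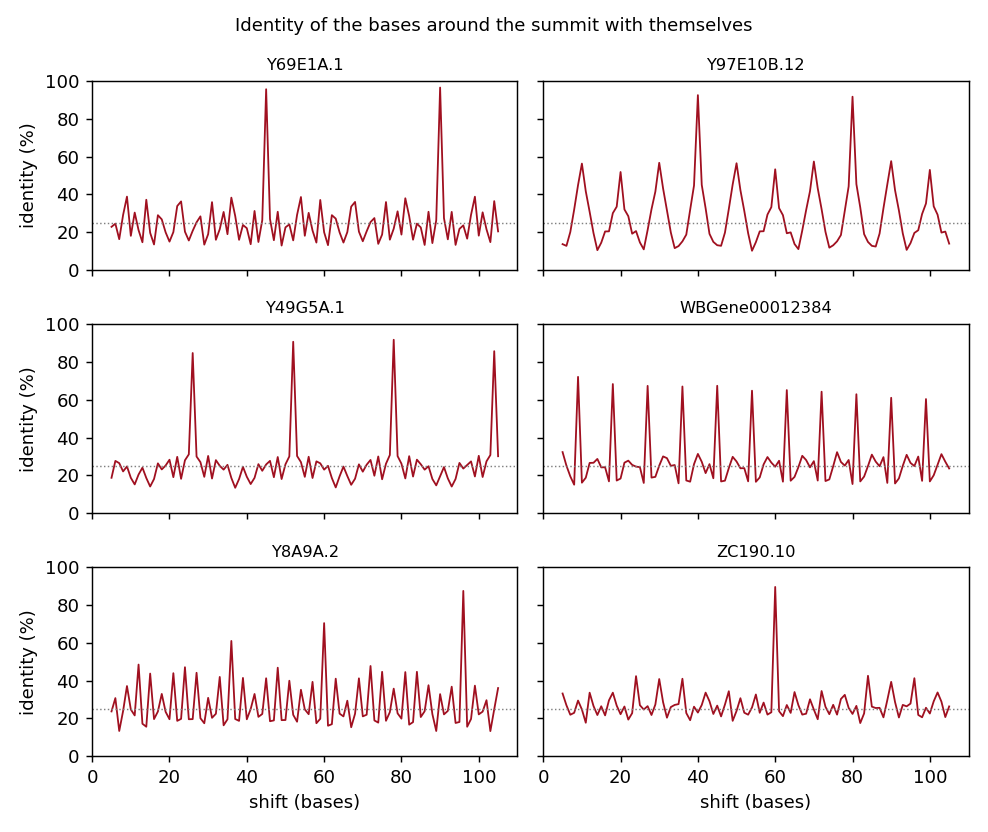
Identity of the bases within 160 of the summit with themselves (vertical axis, %) against the shift (horizontal axis, bases) for 6 members that reached an IDR of 0.01, named by their nearest gene; the dotted line marks 25%. Peaks stand at 45 bases for Y69E1A.1, 40 for Y97E10B.12, 26 and 52 for Y49G5A.1, 9 for WBGene00012384, with others at multiples of these, 96 for Y8A9A.2 and 60 for ZC190.10.

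Tandem repeats were also found among the other members, at a lower share. A self-identity of 70% or more was seen in 61 of 1468 members (4.16%, exact 95% interval 3.19 to 5.31), 8 of 476 conservative regions (1.68%, 0.728 to 3.29) and 0.833% of the other candidates. Without the 17 it was 49 of 1451 (3.38%, 2.51 to 4.44). Of the 61, 36 were intergenic, 13 intronic, 8 in promoters and 4 in coding exons. The unit was 40 bases in 9 of them and 15 bases in 8.

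The 20 strongest members hold 4 that had not reached an IDR of 0.01. The snoRNA gene Y74C9A.6 near the end of its chromosome (I:3705-4024) had a combined signal of 79.2 with matched signals of 22.3 and 53.5. The pseudogene WBGene00044053 (II:14563884-14564203) had 77.6, with 46.2 and 27.5, and its summit lay 33 bp upstream. In the coding part of rpn-1, a proteasome subunit, the region nearest T22D1.8 (IV:6907645-6907964) had 75.8, with 50.5 and 23.5. Near the pseudogene WBGene00045408 (V:17323877-17324196) the signal was 75.3, with 24.3 and 50.2. In each of these 4 the matched signals differed by a factor of more than 1.5.

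For the members as a whole, the matched signals were lower and more unequal than in conservative regions, which is close to what the rule selects and is given as a description. The median combined signal was 55.2 (quartiles 52.3 and 59.8) in members and 88.6 (75.7 and 113.4) in conservative regions. The median first matched signal was 24.6 in members and 41.8 in conservative regions, and the median second one 30.8 in members and 46.6 in conservative regions. The lower of the pair had a median of 22.6 in members and 38.3 in conservative regions. The lowest values in the conservative set were 25.8 and 30.5, and 832 members lay under the first, 719 under the second, 239 under both and 156 under neither. Of those 156, 140 had not reached an IDR of 0.01, among them the promoter of rps-28, a small ribosomal subunit protein, with 29.2 and 39.2, and an intronic region of mter-4, with 32.5 and 35.1. The matched signals can be read as those of the 2 libraries: 94.8% of the first and 95.8% of the second recur with the same ends and value in the ranked list of replicate 1 and of replicate 2, and none (0) in that of the other replicate.

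**Figure D3:**
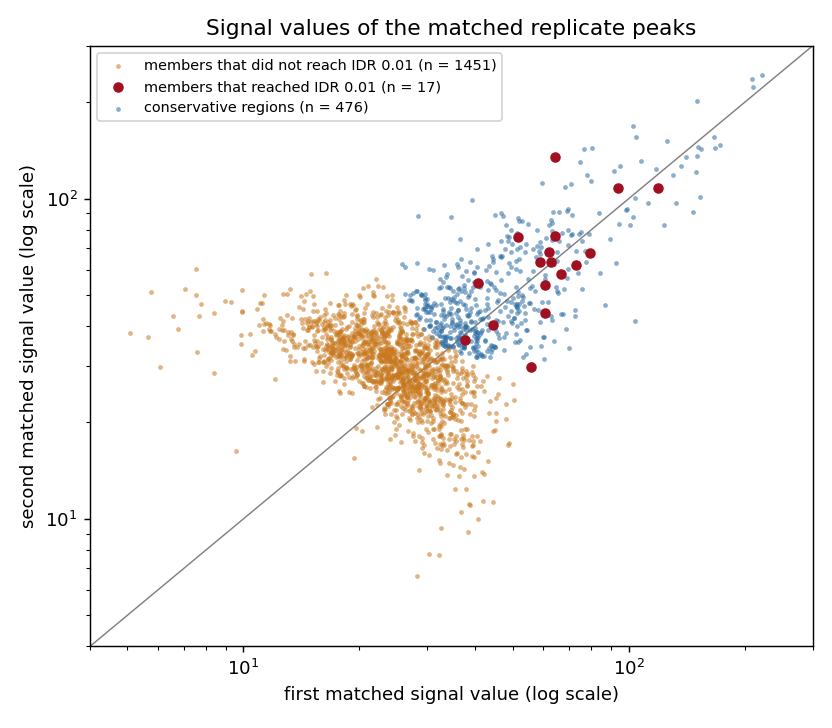
First (horizontal axis) and second (vertical axis) matched signal value of each region, both on log scales, for 1451 members that did not reach an IDR of 0.01, 17 that did and 476 conservative regions. The grey line is equality. The 17 lie among the conservative regions, except that Y95D11A.5 (55.9 and 29.8) falls just under their lowest second signal of 30.5. Most other members lie to the left of or below the conservative regions.

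The second matched signal was higher in 978 of 1468 members (66.6%) and in 296 of 476 conservative regions (62.2%). It was at least 2-fold higher in 250 members (17.03%) and 7 conservative regions (1.47%), and at least 2-fold lower in 60 members (4.09%) and 2 conservative regions (0.420%). At the top end the second signal exceeded the first by 8.91-fold at the tRNA gene WBGene00023195 (5.8 and 51.3), 8.02-fold at the promoter of tub-2, a Tubby-like gene (7.5 and 60.4), and 7.46-fold at Y41D4A.3 (5.1 and 38.0). At the other end were the promoter shared by Y73E7A.1 and bre-4 (28.3 and 6.6), a coding exon of T12G3.2 (38.3 and 9.1) and W06H8.6 (32.2 and 7.7). Few of the members lay in the thresholded list of a single replicate: 5 members and 190 conservative regions overlapped that of replicate 1, and 8 members and 181 conservative regions that of replicate 2. Depth is unknown for both libraries, since the lists hold no read counts, and its part in this inequality was not tested.

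At the edge of the rule the last members were a coding exon of mlh-1 (combined signal 50.006), a coding exon of F08D12.2 (50.007) and an intergenic region near asp-17 (50.012). Just outside lay introns of D1044.1 (49.9999) and vab-10 (49.9998) and an intergenic region near WBGene00019181 (49.9995). No gap in signal sets the members off from the candidates next below.

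Members lay in promoters less often than conservative regions and in coding exons and introns more often. A promoter is here the 1000 bp upstream of a transcript start, and each summit was placed in 1 of 7 classes. Promoter was assigned first, then 5′ UTR, 3′ UTR, coding exon, non-coding RNA exon, intron and intergenic space. A summit inside a gene, as at hil-4, therefore counts as promoter where it lies that close upstream of any transcript start. Of members, 583 of 1468 were in promoters (39.7%, exact 95% interval 37.2 to 42.3), against 349 of 476 conservative regions (73.3%, 69.1 to 77.2). By Fisher's exact test this is an odds ratio of 0.24 (adjusted p = 3.45e-37). Coding exons held 347 members (23.6%, 21.5 to 25.9) and 22 conservative regions (4.62%, 2.92 to 6.91), an odds ratio of 6.39 (adjusted p = 6.49e-24, same exact test). Introns held 16.96% of members and 7.98% of conservative regions (odds ratio 2.35, Fisher's exact test, adjusted p = 1.25e-06) and intergenic space 13.4% of members and 9.03% of conservative regions (odds ratio 1.56, adjusted p = 0.0223 by the same exact test).

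The tests compare annotation, which the rule did not use, and take regions as independent, although neighbours in 1 array are not. The reference is also the stronger set, and against the 39 conservative regions whose signal lay from 50 to the 95th percentile of the members, a set defined only once these values were known, Fisher's exact test gave a promoter odds ratio of 0.412 (adjusted p = 0.0539), 2.71 for coding exons (adjusted p = 0.191), 1.12 for introns (adjusted p = 1) and 1.86 for intergenic space (adjusted p = 0.658). With replicate 1 or replicate 2 left out, as many of the strongest candidates of the other replicate were set against its own thresholded list. The odds ratio of coding exons was then 15.1 or 53.5, with 4 or 1 such regions in the thresholded list, and that of intergenic space 1.13 or 1.07, which did not pass. The intergenic difference was also lost with chromosome X in the reference (1.31), with a promoter of 500 bp (1.17), at a signal threshold of 40 (1.36) and without the 17 members that reached an IDR of 0.01 (Fisher's exact test, odds ratio 1.46, adjusted p = 0.0579).

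The remaining classes did not pass the test. Exons of non-coding RNA genes held 59 members (4.02%) and 17 conservative regions (3.57%; odds ratio 1.13, Fisher's exact test, adjusted p = 0.917). The 5′ UTRs held 1.09% of members and 1.05% of conservative regions, and the 3′ UTRs 1.16% of members and 0.420% of conservative regions (adjusted p = 1 and 0.264, Fisher's exact test). Among the other candidates 32.5% were in promoters, 27.1% in coding exons and 22.0% in introns, so the members lay between them and the conservative regions in these 3 classes. The promoter share was 33.2% among the 367 members with the lowest signal, and 41.7%, 40.1% and 43.9% in the next 3 sets of 367.

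**Figure D4:**
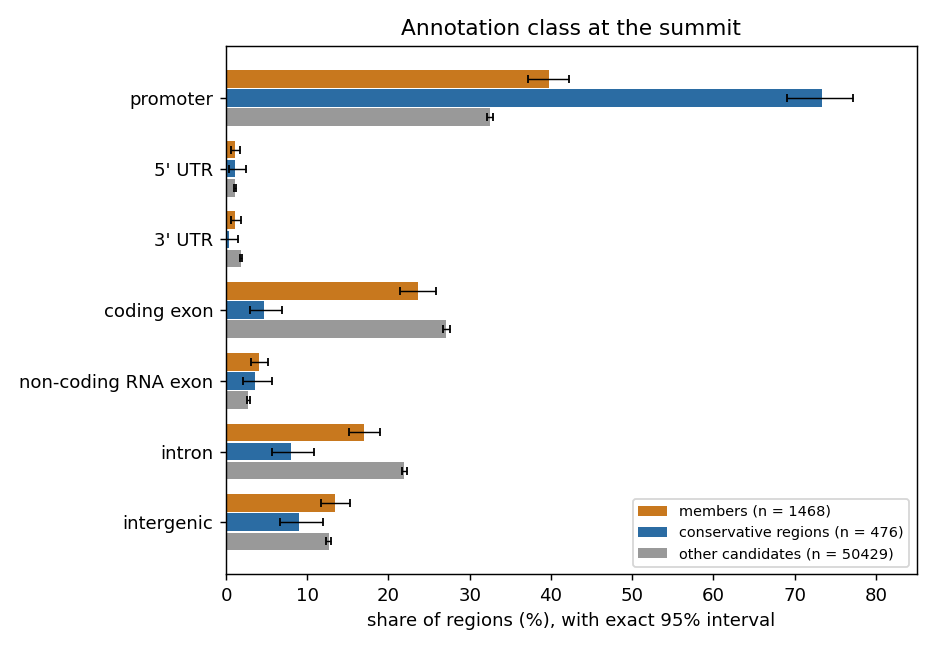
Share of summits in each annotation class (horizontal axis, %, with exact 95% intervals) for members, conservative regions and other candidates. Promoters hold 39.7% of members, 73.3% of conservative regions and 32.5% of other candidates.

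Of members in coding exons that did not reach an IDR of 0.01, the highest signals were in rpn-1 and in dao-5 (I:10188759-10189078, matched signals 31.7 and 34.4), which encodes a nucleolar protein and whose window had 7 other copies, all within 5000 bp. A coding exon of bed-2 itself (III:11464866-11465185), the gene that carries the tag, was also a member, with 28.7 and 22.0; it was picked out after its values were seen. In introns the highest were in mef-2, a transcription factor gene (27.9 and 41.3), mter-4, and lag-1, the effector of Notch signalling in the worm (21.7 and 44.3). The 3′ UTR regions were led by Y44E3A.1 (35.6 and 32.4), Y71F9AL.10 (31.8 and 35.7) and T28B11.1 (28.0 and 28.5), and the 5′ UTR regions by tcer-1, a transcription elongation factor gene (23.3 and 36.0), and tns-1, which encodes tensin (21.3 and 34.1). None of these had reached an IDR of 0.01.

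Summits of members were farther from transcript starts than those of conservative regions. The median distance to the nearest start was 632 bp (quartiles 183.8 and 1520 bp) for members and 189 bp (50 and 528 bp) for conservative regions. To the nearest protein-coding start it was 1044 bp for members and 424 bp for conservative regions. The other candidates had medians of 830 bp to any start and 1182 bp to a protein-coding one, so the members lay between. Within 100 bp of a start lay 241 of 1468 members and 164 of 476 conservative regions, a larger share of the conservative regions. A divergent gene start within 1000 bp was present at 184 of 583 promoter members (31.6%) and 165 of 349 conservative promoter regions (47.3%).

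Of the gene classes at the nearest start, snoRNA genes were less frequent among members and piRNA genes more frequent. SnoRNAs guide chemical modification of other RNAs, and piRNAs are short germline RNAs that silence transposons. A snoRNA gene was nearest for 36 members (2.45%, exact 95% interval 1.72 to 3.38) and 36 conservative regions (7.56%, 5.35 to 10.3), an odds ratio of 0.307 (Fisher's exact test, adjusted p = 1.76e-05). Against the 39 conservative regions of like signal, of which 1 was nearest a snoRNA gene, Fisher's exact test gave an odds ratio of 0.955 (adjusted p = 1), and without replicate 2 it gave 0.509 (adjusted p = 0.115). A piRNA gene was nearest for 38 members (2.59%) and 3 conservative regions (0.63%; odds ratio 4.19, Fisher's exact test, adjusted p = 0.0403). The piRNA share of the other candidates was higher still, 4.28%, and the call was lost without replicate 1 (odds ratio 3.66) and without replicate 2 (2.03). Against the 39 conservative regions of like signal, of which 1 was nearest a piRNA gene, the odds ratio was 1.01 (adjusted p = 1 by Fisher's exact test).

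Protein-coding starts were nearest for 69.3% of members and 67.0% of conservative regions (odds ratio 1.11, Fisher's exact test, adjusted p = 0.467). The shares at ncRNA genes were 14.8% of members and 12.8% of conservative regions, and at pseudogenes 5.18% of members and 3.99% of conservative regions. At tRNA genes they were 3.75% of members and 3.99% of conservative regions, and at snRNA genes 1.02% of members and 2.31% of conservative regions, and none of the 4 passed (Fisher's exact test, adjusted p from 0.12 to 0.784). The snRNA difference did pass under 5 alternatives by Fisher's exact test, with odds ratios of 0.186 without replicate 1 (adjusted p = 0.00463), 0.136 without replicate 2 (0.00544), 0.205 at a signal threshold of 40 (5.14e-04), 0.372 with rows not merged (0.0292) and 0.358 without members within 1000 bp of a passing peak (0.0465). The tRNA difference passed with chromosome X in the reference and at a threshold of 40. The pseudogene difference passed at a threshold of 75, which rests on 20 members, several of them not independent. The other candidates had 0.694% at tRNA genes, 0.904% at snoRNA genes and 0.188% at snRNA genes.

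The 55 members at tRNA genes lay close to them, 46 within 100 bp of the start, with a median distance of 23 bp, and 42 of the 55 windows had another copy in the genome. WBGene00014424 (I:9605606-9605925) had matched signals of 26.3 and 45.7, and WBGene00022911 (IV:620345-620664) had 24.9 and 42.9. The pair WBGene00022966 and WBGene00022967, with divergent starts, had 39.6 and 20.9, and WBGene00014635 had 18.3 and 48.4. In 3 of these 4 the second matched signal was the higher, as in 37 of all 55 (67.3%), beside 66.6% of all members. Since tRNA copies share sequence, reads at one may come from another.

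At snoRNA genes 18 of 36 members lay within 100 bp of the start, and in 11 of the 36 (30.6%) the second matched signal was at least 2-fold the first, beside 17.03% of all members. The same was seen in 0 of 36 conservative regions at snoRNA genes, a set that the IDR selects for agreement of these signals, so the contrast is a description. The median ratio in the members at snoRNA genes was 1.57, beside 1.25 in all members. Y75B12B.12 (V:15190937-15191256) had matched signals of 16.3 and 58.5 and F12F6.11 (IV:11549763-11550082) had 14.9 and 51.4, while C24A1.8, in an intron of elf-1, had 33.9 and 33.7.

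Members at snRNA and spliced leader genes were few. Spliced leader RNAs donate the leader that is joined to many worm mRNAs. Their genes were nearest for 6 members (0.409%), 5 conservative regions (1.05%) and 0.0357% of the other candidates. Sls-2.9 (I:13297691-13298010) had matched signals of 21.6 and 51.2, sls-2.16 had 31.2 and 23.9, sls-2.3 had 23.1 and 34.3 and sls-2.15 had 15.05 and 40.1. The last 2 lay 353 and 408 bp from a conservative peak. The spliceosomal and other snRNA genes were nearest for 9 members (0.613%), 6 conservative regions (1.26%) and 0.153% of the other candidates. Among these members, F40G12.13 had 25.7 and 31.6, R07E5.16 had 34.4 and 32.0, C47F8.9 had 26.8 and 31.3 and F07C6.5 had 23.1 and 32.3.

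Among protein-coding groups, 26 members (1.77%, exact 95% interval 1.16 to 2.58) were nearest a collagen gene, of the family that builds the cuticle, against 1 conservative region (0.21%) and 0.438% of the other candidates. Of the 26, 20 were in coding exons, and in all 20 the best self-match was at a shift that is a multiple of 9 bases, as it was in 24 of 26 overall and in 236 of 1442 other members. Collagen proteins repeat glycine at every 3 residues, which is a period of 9 bases. The highest were col-109 (IV:1818600-1818919, matched signals 25.1 and 45.8), col-77 (23.3 and 37.4), col-81 (25.8 and 34.1) and col-101 (37.0 and 24.5). The window of col-109 had 32 other copies and that of col-77 had 4.

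Ribosomal protein genes were nearest for 7 members (0.477%) and 6 conservative regions (1.26%). After rps-28 came rla-1, an acidic ribosomal protein, with 32.83 and 33.01, rpl-12 with 41.9 and 11.4, and rpl-10 with 20.7 and 45.6. The last 2 were unequal in opposite directions. Genes of the his family, which encodes core histones, were nearest for 3 members (0.204%), 2 conservative regions (0.420%) and 0.0635% of the other candidates. Each of the 3 members was at a divergent pair: his-31 with his-32 (12.3 and 36.4), his-2 with his-1 (25.1 and 27.8) and his-3 with his-4 (18.6 and 39.8). Linker histone genes are not in that list, and among them hil-4 (28.2 and 38.1, promoter) and hil-6 (17.99 and 39.1, coding exon) were nearest to members. The 1 heat shock member (0.0681%, beside 0.0734% of the other candidates) was an intron of hsp-17 (29.9 and 22.1).

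Several gene families that are large in the worm genome were among the nearest genes. Chemoreceptor genes were nearest for 29 members (1.98%), 2 conservative regions (0.420%) and 3.68% of the other candidates, and 5 of the 29 were in promoters. The strongest were srx-18 (32.4 and 23.8), sri-30 (32.5 and 25.4), sri-38 (23.3 and 31.8) and srbc-42 (18.2 and 43.9), and the intronic windows of sri-38 and srx-18 had 1465 and 306 other copies. Nuclear hormone receptor genes had 13 members (0.886%), 0.630% of conservative regions and 1.16% of the other candidates, and the members were led by nhr-85 (22.8 and 38.1) and nhr-145 (27.7 and 28.2). F-box genes had 9 members (0.613%), no conservative region (0) and 0.942% of the other candidates, and the members were led by fbxa-51 (25.1 and 35.9) and fbxc-33 (31.5 and 34.7). Among piRNA genes the highest was 21ur-12557 (28.0 and 39.1), where the summit lies 548 bp downstream of the piRNA start, in a coding exon of F40D4.13, and then 21ur-6564 (18.2 and 36.4). A second 5S gene, rrn-4.15, had 16.3 and 39.2.

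Sequence that recurs elsewhere in the genome was about as frequent in both sets. Another genomic match of 50 bases or more at 80% identity or higher was found for 484 members (32.97%, exact 95% interval 30.6 to 35.4) and 161 conservative regions (33.8%, 29.6 to 38.3). By Fisher's exact test the odds ratio was 0.962 (p = 0.737), which does not show that the shares are equal. At least 10 copies were found for 20.3% of members and 19.7% of conservative regions, and at least 100 for 9.33% of members and 7.14% of conservative regions. A copy lay within 5000 bp for 14.99% of members (13.2 to 16.9) and 10.9% of conservative regions (8.27 to 14.1). At a signal of 75 or more, where 20 members remained, 17 had copies and Fisher's exact test gave an odds ratio of 11.1 (adjusted p = 5.90e-06). By class, 28.3% of promoter members, 20.5% of those in coding exons, 45.8% of those in introns and 50.3% of intergenic ones had a copy.

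Over all regions, the windows of members were between conservative regions and other candidates in base composition and in both words. For the words this order also held in promoters, but not in every class. Median GC content was 48.5% in members, 50.5% in conservative regions and 40.6% in other candidates. ACGCGC was in 76 members (5.18%, exact 95% interval 4.10 to 6.44), 14.5% of conservative regions (11.5 to 17.98) and 1.86% of other candidates (1.74 to 1.98). GTACAC was in 51 members (3.47%, 2.60 to 4.54), 12.2% of conservative regions (9.38 to 15.5) and 2.71% of other candidates (2.57 to 2.86). Within promoters the first word was in 8.41% of members, 18.3% of conservative regions and 2.25% of other candidates, and the second in 4.29% of members, 14.04% of conservative regions and 2.82% of other candidates. In coding exons the first was in 0.865% of members, 0 of 22 conservative regions and 0.709% of other candidates. The second was there in 1.73% of members, 0 of 22 conservative regions and 2.65% of other candidates. In intergenic space the second was in 2.54% of members, 9.30% of conservative regions and 2.88% of other candidates. None of the 17 members that reached an IDR of 0.01 held either word (0 of 17, exact 95% interval up to 19.5%).

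**Figure D5:**
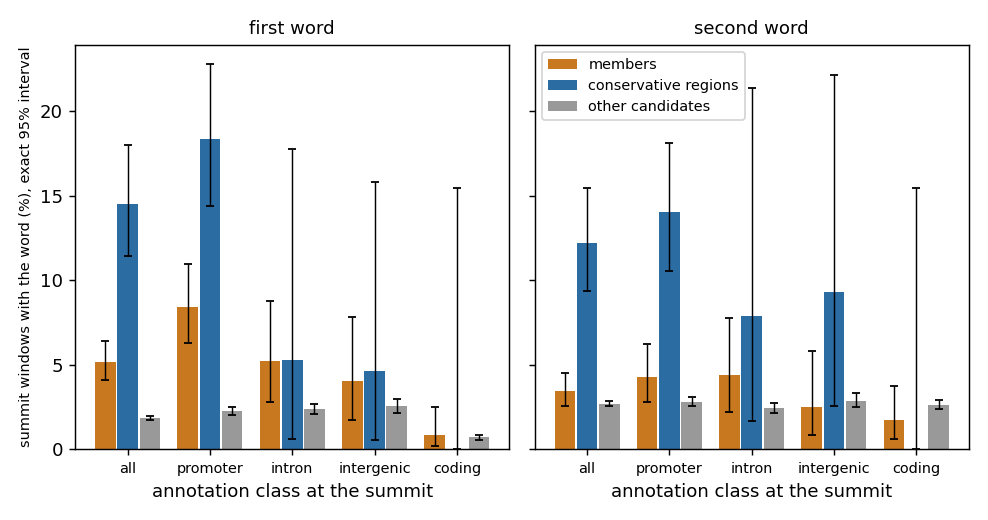
Share of summit windows, 50 bases to each side (vertical axis, %, with exact 95% intervals), that hold ACGCGC (left, first word) or GTACAC (right, second word) on either strand, over all regions and by annotation class, for members, conservative regions and other candidates. In promoters the first word is in 8.41% of members and 18.3% of conservative regions.

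Of the windows printed, that of sas-5 (V:11610533-11610852), a gene of centriole duplication divergent from piit-1, had matched signals of 50.2 and 26.3. The promoter window of vps-60 (V:8606360-8606679), a gene of the membrane-sorting complex ESCRT, had matched signals of 29.3 and 31.0, and the tRNA gene WBGene00004717 (IV:7344088-7344407) had 28.9 and 37.9. Both words were present in 8 members. They include tmed-10 (33.7 and 26.6), a gene of vesicle transport, B0464.6 (22.9 and 33.9), Y55F3AR.2 (37.5 and 22.3), which is divergent from the chaperonin gene cct-8, and mcm-4 (35.9 and 27.5), a subunit of the replicative helicase. The others are sls-2.9, C47F8.9, an intron of gcy-28 (15.04 and 39.8) and an intron of dis-3, a nuclease of the RNA exosome (16.6 and 31.6).

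Members were spread over the 5 autosomes. Chromosomes I to V held 21.3%, 18.3%, 18.5%, 19.2% and 22.7% of members, against 22.7%, 20.4%, 17.9%, 18.1% and 21.0% of conservative regions. The median gap to the nearest conservative peak was 56665 bp, and 32 members lay within 1000 bp of one. Candidates that overlap such a peak had been removed by the rule. The gap of the other candidates was not measured, so these values have no baseline. The closest were F16A11.13 at 146 bp, an intron of epg-9, an autophagy gene, at 187 bp, and hil-4, a linker histone gene, at 203 bp. At 322 bp lay the promoter of lgg-1, the worm homologue of Atg8, with matched signals of 23.9 and 44.3.

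Runs of 2 or more members within 5000 bp of each other numbered 157 and held 352 members (24.0%), against 43 runs with 91 conservative regions (19.1%). The share in runs also depends on the number of regions, 1468 members and 476 conservative regions. It was not adjusted for this, so the shares do not show which set is more clustered. Of the 30 runs with 3 or more members, 6 had 4 or more and the longest was the array of 6 on chromosome V. Some were at 1 gene: 3 members lay in promoters of egl-30, which encodes a G protein subunit, with combined signals of 68.7, 59.0 and 58.4, and 3 in sbp-1, the SREBP homologue, with 57.4, 53.8 and 54.1. The strongest of those in sbp-1 lay in an intronic tandem repeat with a unit of 43 bases (self-identity 86.0%), and its window had 3218 other copies. A run near cki-1, a CDK inhibitor gene, held 3 promoter members, with 67.2 at cki-1 itself. Another of 4 members held 3 at tRNA genes, WBGene00014332, WBGene00014026 and WBGene00014126, with 52.5, 55.7 and 57.9. The array at K01F9.6 held 3, with 53.9, 55.3 and 199.3, and that at Y95D11A.4 held 4, with 193.1, 65.5, 61.5 and 78.9. In both arrays 1 member stood far above its neighbours.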

How the data were processed

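ChIP-seq of EGFP-tagged BED-2 was used from 8 deposited peak lists on assembly ce11. Per the text deposited with the samples, the authors made a replicate's lists from 1 alignment of its own plus a control, and series lists from both alignments. The thresholded lists derive from 1 further file, of unstated content, that the ranked lists do not use. No source used here names an aligner or a peak caller. The labels name bed-2 as the antibody target and describe an anti-GFP immunoprecipitation. Each peak has a signal as deposited, the authors' own value, used to describe and rank peaks. The deposited score is a rescaled global IDR, and ranked lists give the −log10 of that rate as deposited. A further 2 columns of matched signal, other than those reported, that could not be tied to samples were not used. Depth is unknown because the lists hold no read counts. Intervals cover only counting error among regions.

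The members and lists were chosen with earlier results of these data known. Rows overlapping by 1 base were merged, keeping the strongest. Annotation came from Ensembl release 115 and sequence from RefSeq (WBcel235), whose chromosome lengths hold every peak. Shares were compared by two-sided Fisher's exact tests, adjusted by Benjamini-Hochberg over 7 classes or 9 biotypes at 0.05, with exact 95% Clopper-Pearson intervals. Recurrence used blastn 2.17.0 on windows of 50 bases to each side of the summit (e-value 0.001), and tandem units used the identity of the bases within 160 of the summit with themselves at shifts of 5 to 105. Named regions are the 20 strongest, 3 at each end of the ratio and of the threshold, up to 4 of each class and group, and runs of 3 or more. The members with both words, those nearest to a conservative peak and the windows printed were picked after seeing values. Alternatives were 17 settings, 2 of them added after seeing the data. Merging, overlap, the share test and the tandem unit search were tested on simulated data. Python 3.11.15, numpy 2.4.6, pandas 2.3.3, scipy 1.17.1 and matplotlib 3.10.9 were used.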

Additional observations from a re-analysis of the deposited data

How the results depend on the processing

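Odds ratios below are members over the reference by Fisher's exact test. The promoter and coding exon differences kept their direction under all 15 alternatives run for each, and their call under 14 and 13. The number of members was 5185 at a signal threshold of 40 and 20 at 75. Results at 75 therefore rest on few regions, several of which lie in the same array or share a unit and are not independent. Of the 20, 16 had reached an IDR of 0.01 and are members only because the thresholded lists lack them. At 75 the odds ratios from the exact test were 2.29 (coding exon, not past the threshold), 0 (intron, 5′ UTR, 3′ UTR, piRNA), 0.643 (snoRNA, not past it), 0.328 (protein-coding), 8.02 (pseudogene, past it, adjusted p = 0.0148), 18.7 (intergenic, past it, adjusted p = 3.71e-08) and 11.1 (recurring sequence, past it), the median distance was 1711.5 bp and the median lower matched signal 55.9. At 40 the exact test gave 1.32 (protein-coding, past the threshold), 0.838 (non-coding RNA exon), 0.526 (tRNA, past it, adjusted p = 0.0278), 0.205 (snRNA, past it) and 1.36 (intergenic, not past it). Against the 39 conservative regions of like signal they were 0.412 (promoter), 2.71 (coding exon), 0.955 (snoRNA), 0.493 (protein-coding), 1.48 (tRNA), 0.217 (3′ UTR), 1.01 (piRNA) and 1.11 (recurring sequence), none past the threshold. With chromosome X in the reference the exact test gave 1.34 (protein-coding, past it), 0.88 (5′ UTR), 0.775 (non-coding RNA exon), 0.995 (ncRNA), 0.451 (tRNA, past it, adjusted p = 9.37e-04) and 1.31 (intergenic, not past it). With regions within 5000 bp merged they were 1.01 (recurring sequence), 0.805 (5′ UTR) and 1.03 (tRNA). Recurring sequence had 1.00 (1.001) in the members' whole signal range, where piRNA genes no longer passed the exact test (3.90, adjusted p = 0.0617), nor did they with regions within 5000 bp merged (3.89, adjusted p = 0.0557). A promoter of 500 bp gave 0.717 (5′ UTR) and 0.874 (non-coding RNA exon), and one of 2000 bp gave 0.891 (5′ UTR). Starts within 1000 bp gave 0.969 (protein-coding), 1.30 (miRNA) and 1.19 (tRNA), and the optimal list 1.08 (tRNA). Leaving out replicate 1 or 2 gave ranges of 0.413 to 0.509 (snoRNA, not past the threshold without replicate 2), 0.985 to 1.23 (protein-coding), 0.582 to 1.06 (non-coding RNA exon), 0.486 to 1.16 (miRNA), 0.615 to 0.708 (pseudogene) and 1.05 to 6.30 (tRNA). The cause of these changes was not tested. The number of regions was smaller at 75 and in the reference of 39. No odds ratio could be had in 7 cases where the reference held none: 5′ UTR without replicate 1, 3′ UTR without replicate 2, and 5′ UTR, non-coding RNA exon, lincRNA, miRNA and pseudogene against the 39 regions. No paired analysis was possible because there is 1 group.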
